A study of Mus musculus with 237 samples.

Results

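The 9 laminin chain genes Lama1, Lama2, Lama3, Lama4, Lama5, Lamb1, Lamb2, Lamb3 and Lamc1 were examined in single cells of embryonic mouse skin. They were found by the Ensembl identifier of their symbol, and all 9 had a row among the 55335 genes of the count table. The skin came from C57BL/6N embryos at E14.5 carried by ICR surrogate mothers, of which 3 were wild-type (WT01 to WT03) and 7 were p63 knockout (MU01 to MU07, edited with CRISPR-Cas9 as zygotes in exon 5 of Trp63, which encodes p63). WT epidermis was lifted from the dermis with dispase and then dissociated with trypsin, while p63 knockout fetuses were digested directly with trypsin, although the labels give skin as the source. The study's methods describe a qPCR screen of the cDNA for samples positive for Krt5 in WT and for Krt8 in the knockout, without marked Pdgfra. Krt5 and Krt8 also help define the states used below. In both genotypes, single cells negative for PI, CD45, TER119 and CD140a were sorted into the SMART-Seq HT reaction. The labels name WT-KCB (basal layer, 45 cells), WT-KCI (intermediate layer, 8 cells), WT-KCP (K17 high, 8 cells), p63 KO-SER (surface ectoderm remnant, 50 cells), p63 KO-SKH (K5 and K14 high, 28 cells) and p63 KO fibroblasts (70 cells), beside smaller classes. The smaller classes include cells labelled omit (10 knockout and 1 WT) and unknown cell (12 knockout and 1 WT). All 70 labelled fibroblasts came from the knockout embryo MU01, and no WT cell was labelled a fibroblast.

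Of the 237 columns of the count table, 1 per cell, 16 could be tied to a labelled cell, and all 16 came from embryo WT01 (11 WT-KCB, 1 WT-KCI and 4 WT-KCP). The other columns carried no embryo, genotype or label here, so the matrix was treated as 1 sample and no p-value, standard error or SD was taken from columns. Cells labelled omit or unknown cell could not be picked out, and no column was left out by label or quality. The study's methods describe a removal of low-quality samples by transcript integrity and gene body coverage. The columns were sorted by marker genes in CPM (the count of a gene per 1000000 counts of its column). Mesenchymal columns had Col1a1 and Col3a1 at 100 CPM or more, simple columns had Krt8 and Krt18 at 100 CPM or more with Krt5 and Krt14 below 100, and basal columns had Krt5 and Krt14 at 300 CPM or more with Krt8 below 100. These rules use no laminin gene and are not genotypes. They gave 54 basal, 66 simple and 79 mesenchymal columns, 1 of them both simple and mesenchymal, and left 39 columns in no state. All 11 WT-KCB and all 4 WT-KCP cells met the basal rule, and the WT-KCI cell met none. Column totals ranged from 2701500 to 19197138 counts with a median of 6938031.

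Markers outside the rules followed the names of the states, with exceptions. Trp63 reached 10 CPM in 54 of 54 basal, 49 of 66 simple and 2 of 79 mesenchymal columns. Pdgfra, whose protein is the CD140a antigen that the sort selected against, reached 10 CPM in 66 of 79 mesenchymal columns and in 1 basal column. The screening genes Krt8 and Krt5 reached 10 CPM in 1 and 0 of the 79 mesenchymal columns. Most mesenchymal columns thus did not show the profile that the described qPCR screen would keep. Dcn, a fibroblast proteoglycan, had medians of 482.9 CPM in basal, 368.6 CPM in simple and 3422 CPM in mesenchymal columns. Col1a1 did not exceed 3.13 CPM in any basal column. In simple columns, Col3a1 reached 10 CPM in 36 of 66, Col1a2 in 14, Lum in 7, Col1a1 in 5, and Pdgfra and Twist2 in 0. The basal keratin Krt15 reached 10 CPM in 42 of 66 simple columns. The part of mesenchymal RNA in the laminin values was not tested. Of the endothelial genes, Cdh5 stayed at or below 8.45 CPM in every column of the 3 states. Kdr reached 10 CPM in 2 simple and 3 mesenchymal columns, at up to 229.9 and 68.67 CPM. Pecam1 did so in 1 basal and 1 simple column, at 50.89 and 59.54 CPM. The blood gene Ptprc was 0 in every column of the 3 states, while Hba-a1, a haemoglobin of red cells, reached 10 CPM in 15 of 66 simple columns. In the 39 columns of no state, Lama3 reached 10 CPM in 16, Lama5 in 18, Lamb3 in 4 and Lama4 in 8.

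Laminins are basement membrane glycoproteins built as trimers of 1 alpha, 1 beta and 1 gamma chain, and the digits of a laminin (Lm) give its chains in that order. The chains meet inside the secreting cell, so a cell that lacks the message of a chain at a given time has no fresh supply of that chain for its trimers. In skin, Lm332 anchors basal keratinocytes through integrin alpha 6 beta 4 in hemidesmosomes, Lm511 is the other main epidermal laminin and binds integrin alpha 3 beta 1, Lm411 belongs to vessels and mesenchymal tissues, and Lm211 to muscle and nerve. Lm332 was followed here by its alpha 3 and beta 3 chains.

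The stretches upstream of the RefSeq start sites are shown for 4 members that stood for different patterns below, Lamb3 for basal columns, Lama5 for both epithelial states, Lama2 for mesenchymal columns and Lamb1 for all 3 states. RefSeq windows on GRCm38.p6 were matched for 5 of the 9 members, were trimmed of annotated exons, and are printed 5′ to 3′ on the strand of the gene. Capitals mark the GC box, GGGCGG on either strand, which is the site of SP factors and stood in 32.7% of 32841 upstream windows.
Lamb3, chr1:193301744-193301992, plus strand: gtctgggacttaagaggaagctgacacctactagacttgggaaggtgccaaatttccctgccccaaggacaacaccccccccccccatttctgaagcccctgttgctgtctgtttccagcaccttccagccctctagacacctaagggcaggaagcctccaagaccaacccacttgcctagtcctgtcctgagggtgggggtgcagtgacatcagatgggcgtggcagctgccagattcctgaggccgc
Lama5, chr2:180225860-180226109, minus strand: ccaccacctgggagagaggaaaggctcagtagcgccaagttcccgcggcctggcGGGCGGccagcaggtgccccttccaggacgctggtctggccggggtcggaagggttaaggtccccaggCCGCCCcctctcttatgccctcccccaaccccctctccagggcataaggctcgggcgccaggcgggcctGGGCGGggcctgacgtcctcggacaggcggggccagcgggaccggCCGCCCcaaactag
Lama2, chr10:27616943-27617192, minus strand: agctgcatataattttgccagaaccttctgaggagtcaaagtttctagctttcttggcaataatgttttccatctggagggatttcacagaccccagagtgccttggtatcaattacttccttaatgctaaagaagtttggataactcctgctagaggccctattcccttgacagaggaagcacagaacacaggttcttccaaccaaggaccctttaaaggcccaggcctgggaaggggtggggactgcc
Lamb1, chr12:31265043-31265233, plus strand: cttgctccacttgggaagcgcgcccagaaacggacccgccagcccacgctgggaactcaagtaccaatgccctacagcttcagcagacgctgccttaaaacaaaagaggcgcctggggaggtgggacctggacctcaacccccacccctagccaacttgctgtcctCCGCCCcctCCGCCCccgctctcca
The Lama5 stretch held 4 GC boxes and the shorter Lamb1 stretch 2, and none was found in the stretches of Lamb3, Lama2 or Lamb2. The GC content was 72.4% for Lama5, 63.9% for Lamb1, 58.6% for Lamb3 and 47.2% for Lama2, against a median of 52.4% over all windows. Neither the TATA box TATAAA (in 12.4% of windows) nor the AP-1 site TGANTCA (in 6.75%) was found in any of the 5 stretches, on either strand. These matches describe the letters only. The RefSeq starts of Lamb3 and Lama2 lie within the longer GENCODE extents of these genes that are given below.

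Among the alpha chains, which decide most of the receptor binding of a laminin, Lama3 marked basal columns, Lama5 marked both epithelial states and Lama4 with Lama2 marked mesenchymal columns. Lama3 encodes the alpha chain of Lm332. In basal columns its lowest, median and highest values were 0.509, 170.5 and 675 CPM, in simple columns 0, 0.257 and 180.2 CPM, and in mesenchymal columns it was 0 in 79 of 79. At 10 CPM or more it was held by 51 of 54 basal columns (94.4%, exact 95% binomial interval 84.6 to 98.8) and by 11 of 66 simple columns (16.7%, 8.62 to 27.9). Every basal column was above every mesenchymal column, and 24 of 54 basal columns were above the highest simple column, whereas 1 simple column lay above the basal median. Summed over columns, Lama3 stood at 195.6 CPM in basal columns (exact 95% Poisson interval 194.4 to 196.9) and 14.02 CPM in simple columns (13.7 to 14.3). Both kinds of interval cover counting error only, of amplified reads without molecular identifiers for the Poisson interval and of the columns of this 1 matrix for the binomial one, and neither holds the spread between embryos. With 0 counts over 79 columns, the level in mesenchymal columns was 197-fold lower than in basal columns with 1 CPM added to each. With 3 counts over the group taken as the floor, the reads differed by at least 31200-fold. That bound holds for amplified reads and sets no limit on message that was not captured.

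Lama5 (chr2:180176373-180225859, minus strand, GRCm38) encodes the alpha chain of Lm511 and Lm521. Its lowest, median and highest values were 0.872, 102.6 and 732 CPM in basal columns, 0, 49.9 and 2236 CPM in simple columns, and 0, 0 and 235.1 CPM in mesenchymal columns. It reached 10 CPM in 52 of 54 basal, 50 of 66 simple and 6 of 79 mesenchymal columns. Basal and simple values overlapped over nearly their whole range, and 23 of 65 simple columns lay above the basal median. The simple column at 2236 CPM was singled out after its values were seen. It also held Itga3 at 3088 CPM and Itgb4 at 1809 CPM, yet had Lamb1 at 1.55, Lamb2 at 3.10 and Lamc1 at 0.621 CPM, so it paired the highest alpha 5 level of the simple state with almost no beta or gamma chain.

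Lama4 (chr10:38965515-39110188, plus strand), the alpha chain of Lm411 and Lm421, had a lowest, median and highest value of 0, 367.2 and 1571 CPM in mesenchymal columns, and reached 10 CPM in 77 of 79 of them (97.5%, 91.2 to 99.7). In epithelial columns it was mostly absent, with 0 counts in 47 of 54 basal and 56 of 66 simple columns, and it reached 10 CPM in 2 basal and 3 simple columns. Of 78 mesenchymal columns that met no other rule, 73 lay above the highest basal column and 70 above the highest simple column. Lama2 (chr10:26980036-27619758, minus strand), the alpha chain of Lm211 and Lm221, was lower and more scattered, with a lowest, median and highest value of 0, 53.1 and 299.9 CPM in mesenchymal columns. It reached 10 CPM in 55 of 79 mesenchymal columns, 1 basal and 1 simple column, at 25.7 and 123.5 CPM in those 2. Lama1 (chr17:67697259-67822647, plus strand), known from early embryonic basement membranes, had a median of 0 in every state and reached 10 CPM in 9 of 54 basal, 3 of 66 simple and 9 of 79 mesenchymal columns, with highest values of 63.4, 86.4 and 129.5 CPM. It was the one member that passed a 2-fold difference in none of the 3 comparisons of states below, but its level in simple columns fell from 3.59 to 1.73 CPM without 1 column, which brought its log2 ratio to -1.29 in simple against basal and to 1.27 in mesenchymal against simple columns.

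**Figure D1:**
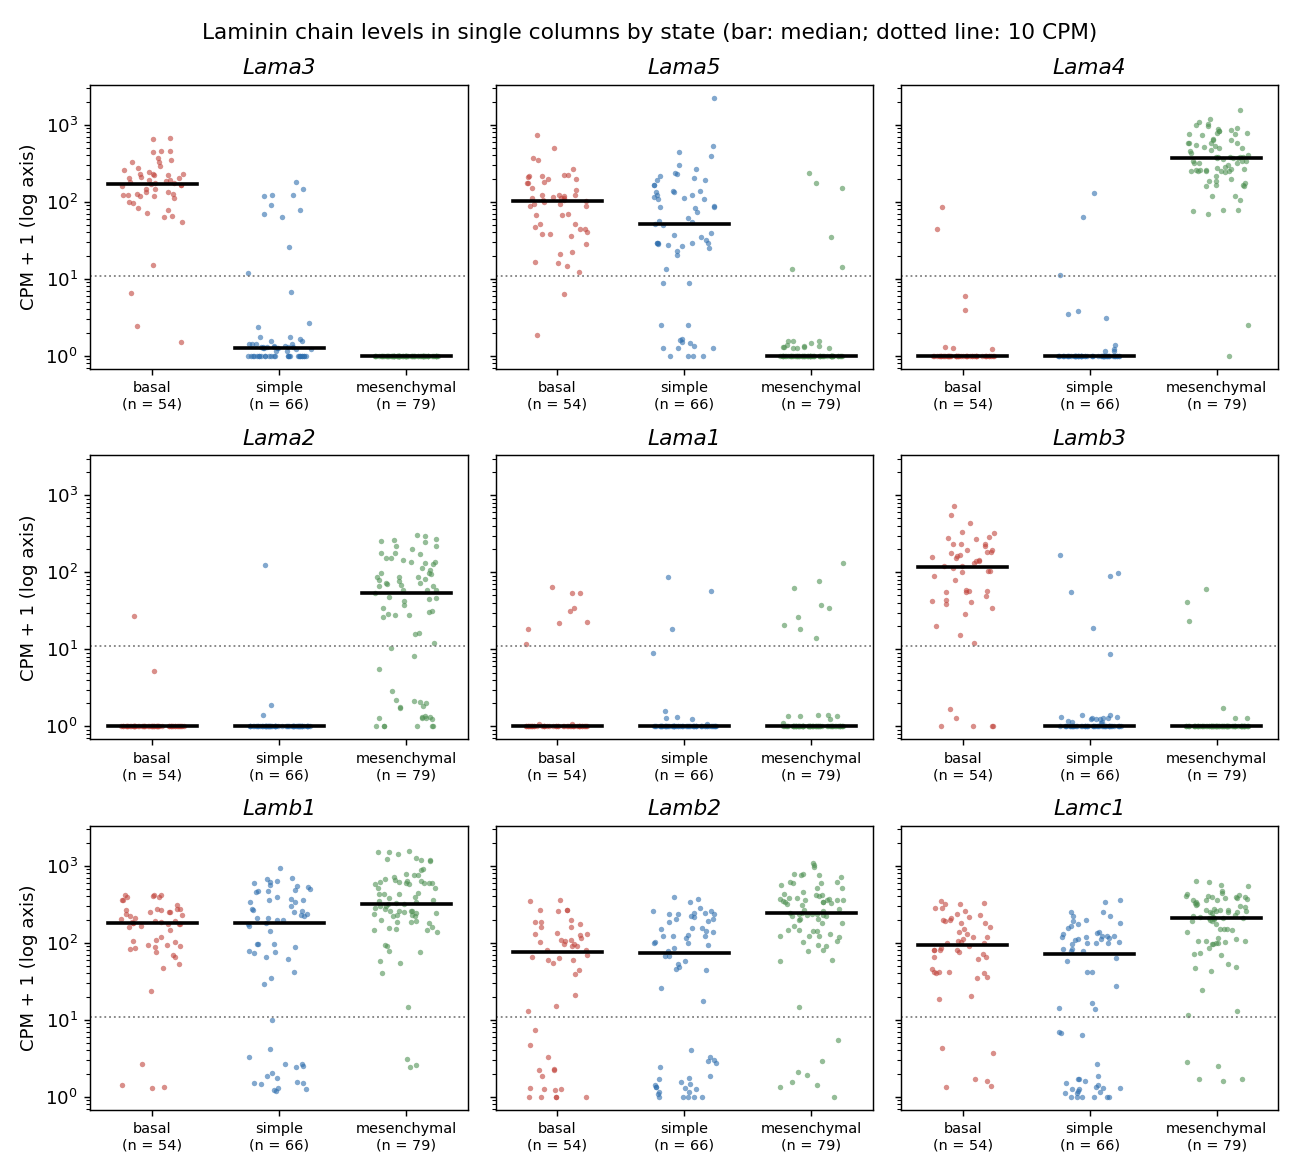
CPM + 1 of the 9 laminin chains on a log axis, 1 point per column, for 54 basal, 66 simple and 79 mesenchymal columns, with the median as a bar and 10 CPM as a dotted line. Lama3 and Lamb3 are high in basal columns, Lama5 in basal and simple columns, Lama4 and Lama2 in mesenchymal columns, and Lamb1, Lamb2 and Lamc1 in most columns of all 3 states with a separate low group.

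Among the beta chains, Lamb3 went with the basal state and Lamb1 and Lamb2 were shared by all states. Lamb3 (chr1:193207699-193343878, plus strand) encodes the beta chain of Lm332. It had a lowest, median and highest value of 0, 115.2 and 722 CPM in basal columns, 0, 0 and 164.3 CPM in simple columns, and 0, 0 and 59.9 CPM in mesenchymal columns. It reached 10 CPM in 48 of 54 basal columns (88.9%, 77.4 to 95.8), 5 of 66 simple columns (7.58%, 2.51 to 16.8) and 3 of 79 mesenchymal columns (3.8%, 0.79 to 10.7). Of the basal columns, 18 lay above the highest simple column and 33 above the highest mesenchymal column. The 3 mesenchymal columns with Lamb3, at 22.1, 40.2 and 59.9 CPM, held 257.4 to 379.1 CPM of Lama4, no Lama3 and Krt8 at or below 0.75 CPM.

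Lamb1 (chr12:31265234-31329644, plus strand), the beta chain of Lm111, Lm211, Lm411 and Lm511, was the one member with a count in all 237 columns. Its lowest, median and highest values were 0.306, 179.5 and 419 CPM in basal columns, 0.208, 178 and 939 CPM in simple columns, and 1.41, 321.5 and 1559 CPM in mesenchymal columns. The medians of basal and simple columns were nearly equal, but 14 of 65 simple columns lay above the highest basal column, and 18 of 66 simple columns fell below 10 CPM against 4 of 54 basal columns. Lamb2 (chr9:108479736-108490530, plus strand), the beta chain of Lm221, Lm321, Lm421 and Lm521, had medians of 73.8, 71.7 and 241.1 CPM in basal, simple and mesenchymal columns, and reached 10 CPM in 38 of 54, 42 of 66 and 71 of 79 of them. Both beta chains stood together in 35 of 54 basal, 35 of 66 simple and 68 of 79 mesenchymal columns, and neither was held by 11 of 66 simple columns, 1 basal column and no mesenchymal column.

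Lamc1 (chr1:153218922-153332786, minus strand), the gamma chain of every trimer scored in full below, had a lowest, median and highest value of 0.339, 93.8 and 352.6 CPM in basal columns, 0, 69.7 and 356.3 CPM in simple columns and 0.615, 209.5 and 632.7 CPM in mesenchymal columns. It reached 10 CPM in 48 of 54 basal, 41 of 66 simple and 74 of 79 mesenchymal columns, so the simple state had the most columns without it, 25. Lamc3, the chain of a laminin of the nervous system, was at 0 in 54 of 54 basal columns and reached 10 CPM in 2 mesenchymal columns, at 170.4 and 43.8 CPM.

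Levels of different chains were compared per kilobase of exon (CPM of the summed columns divided by the union of annotated exons). In basal columns Lamb3 (22.6 CPM per kb), Lamb1 (18.8), Lama3 (18.2), Lamb2 (15.9), Lamc1 and Lama5 (11.2) followed each other in that order, and the ranges of their columns overlapped. In simple columns Lamb1 (21.5 CPM per kb) led before Lamb2, Lama5 (9.68) and Lamc1 (9.51) were level, and Lama3 (1.30) and Lamb3 (0.955) were lowest of these. In mesenchymal columns Lamb2 (49.9 CPM per kb), Lamb1, Lama4 (34.6) and Lamc1 (26.2) stood above Lama2 (4.34) and Lama5 (0.769). With the longest annotated transcript as the length, Lamb1 led in all 3 states, at 32.2 CPM per kb in basal, 36.9 in simple and 77.2 in mesenchymal columns, and Lama4 rose to 69.1 in mesenchymal columns, so the order of these leading chains rests on the length taken.

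Simple columns were compared with basal columns to ask which chains differ between these epithelial states. WT and knockout cells differed in digestion and in the gene of the described screen, Krt5 or Krt8. State, genotype and preparation therefore cannot be told apart in this comparison. Only Lama3 and Lamb3 passed a 2-fold difference, and both were lower in simple columns, Lama3 by 13.1-fold (14.02 against 195.6 CPM) and Lamb3 by 20.6-fold (6.32 against 149.7 CPM). Fold changes here are on the scale of log2(CPM + 1) of the summed columns. The Lama3 difference was 8.49-fold with TMM scaling and 7.66-fold when all marker cutoffs of the states were doubled. The other 7 members differed by 1.06-fold (Lamb2) to 1.57-fold (Lamc1, 78.7 against 124.0 CPM). Without 1 simple column, Lama5 fell from 110.2 to 85.8 CPM there, with a log2 ratio of -0.57 in place of -0.21. Without another simple column, Lama1 also passed 2-fold, with a log2 ratio of -1.29. None of 9 members was higher and 2 were lower by 2-fold or more, while over the 16673 genes tested 18.6% were higher and 13.2% lower. The median log2 ratio of the members was -0.21 against 0.05 over all genes.

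In mesenchymal against basal columns, 7 of 9 members passed 2-fold. Since every labelled fibroblast came from knockout embryo MU01, state, genotype, embryo and digestion cannot be told apart for mesenchymal columns. Higher were Lama4 (417.5 against 2.02 CPM, 139-fold), Lama2 (70.8 against 0.562 CPM, a log2 ratio of 5.52), Lamb2 (303.7 against 96.5 CPM, 3.13-fold) and Lamb1 (446.7 against 186.5 CPM, 2.39-fold). Lower were Lama3, Lamb3 (1.47 against 149.7 CPM, a log2 ratio of -5.93) and Lama5 (8.76 against 127.9 CPM, 13.2-fold). Over the 16850 genes tested, 19.6% were higher and 18.8% lower, and the median log2 ratio was 0.80 for the members against -0.21 for all genes. Lamc1, at 216.9 against 124.0 CPM, was 1.74-fold higher and did not pass, but with TMM scaling it reached a log2 ratio of 1.02, and TMM moved the median of all genes from -0.21 to -0.04. The values of Lama4 and Lama2 in basal columns rest on few columns. Without 1 basal column they fell from 2.02 to 0.875 CPM for Lama4 and from 0.562 to 0.106 CPM for Lama2, so their folds have no firm size. Lama5 in mesenchymal columns fell from 8.76 to 5.33 CPM without 1 column.

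In mesenchymal against simple columns, which share their columns with the comparisons above, 5 of 9 members were higher and 3 lower, while over 17259 genes 18.8% were higher and 23.7% lower. Lama4 (417.5 against 2.57 CPM, 117-fold), Lama2 (70.8 against 1.28 CPM, 31.5-fold), Lamb2 (303.7 against 91.3 CPM, 3.30-fold), Lamc1 (216.9 against 78.7 CPM, 2.73-fold) and Lamb1 (446.7 against 213.3 CPM, 2.09-fold) were higher. Lama5 (8.76 against 110.2 CPM, 11.4-fold), Lama3 (0 counts against 14.02 CPM, at least 2240-fold against the floor of 3 counts) and Lamb3 (1.47 against 6.32 CPM, 2.96-fold) were lower. The median log2 ratio was 1.06 for the members against -0.21 for all genes. Lama2 in simple columns came almost wholly from 1 column, without which its level was 0.0125 CPM, Lama4 in simple columns fell to 1.11 CPM without 1 column, and Lamb3 in mesenchymal columns fell to 0.706 CPM without 1 column. Lamb1 did not pass when all marker cutoffs of the states were doubled, with a log2 ratio of 0.85.

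A single column was next asked for complete sets of chains, each at 10 CPM or more. The alpha 3 and beta 3 chains of Lm332 stood together in 46 of 54 basal columns (85.2%, exact 95% binomial interval 72.9 to 93.4), in 0 of 66 simple columns and in 0 of 79 mesenchymal columns, for which the exact intervals reach up to 5.44% and 4.56%. Since a cell short of either chain cannot complete the trimer, the share of the pair is an upper bound for Lm332 at this cutoff. In basal columns 5 held Lama3 without Lamb3 and 2 held Lamb3 without Lama3. In simple columns 11 held Lama3 without Lamb3, 5 held Lamb3 without Lama3, and the other 50 held neither, so at 10 CPM no simple column held both. At 1 CPM 1 simple column did (1.52%), with 89.6 CPM of Lamb3 and 5.72 CPM of Lama3.

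**Figure D2:**
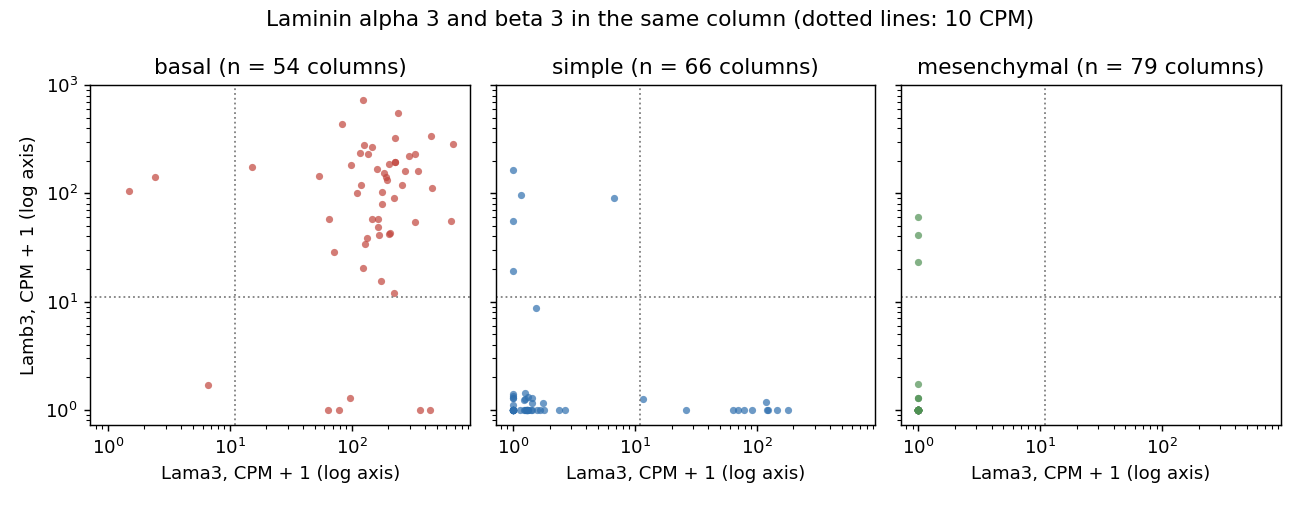
Lama3 against Lamb3 in the same column, as CPM + 1 on log axes, in 3 panels for 54 basal, 66 simple and 79 mesenchymal columns, with 10 CPM as dotted lines. Basal columns fill the upper right (46 columns), and simple columns lie along the 2 axes, with 11 columns at 10 CPM or more of Lama3 alone and 5 of Lamb3 alone.

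Lm511 (Lama5, Lamb1 and Lamc1) could be made by 42 of 54 basal columns (77.8%, 64.4 to 88.0), 36 of 66 simple columns (54.5%, 41.8 to 66.9) and 6 of 79 mesenchymal columns (7.59%, 2.84 to 15.8). Lm411 (Lama4, Lamb1 and Lamc1) was held by 2 of 54 basal, 3 of 66 simple and 69 of 79 mesenchymal columns (87.3%, 78.0 to 93.8). With beta 2 in place of beta 1, Lm521 was held by 32 basal, 31 simple and 4 mesenchymal columns, and Lm421 by 66 mesenchymal columns. Lm211 was held by 52 of 79 mesenchymal columns, 1 basal and 0 simple columns, and Lm221 by 47 mesenchymal columns and no basal or simple column. Of the 69 mesenchymal columns with Lm411, 51 also held Lm211. Lm311 (Lama3, Lamb1 and Lamc1) was held by 43 basal and 7 simple columns, and Lm111 by 8 basal, 2 simple and 9 mesenchymal columns. The same columns and chains enter several trimers, so these counts are not independent.

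**Figure D3:**
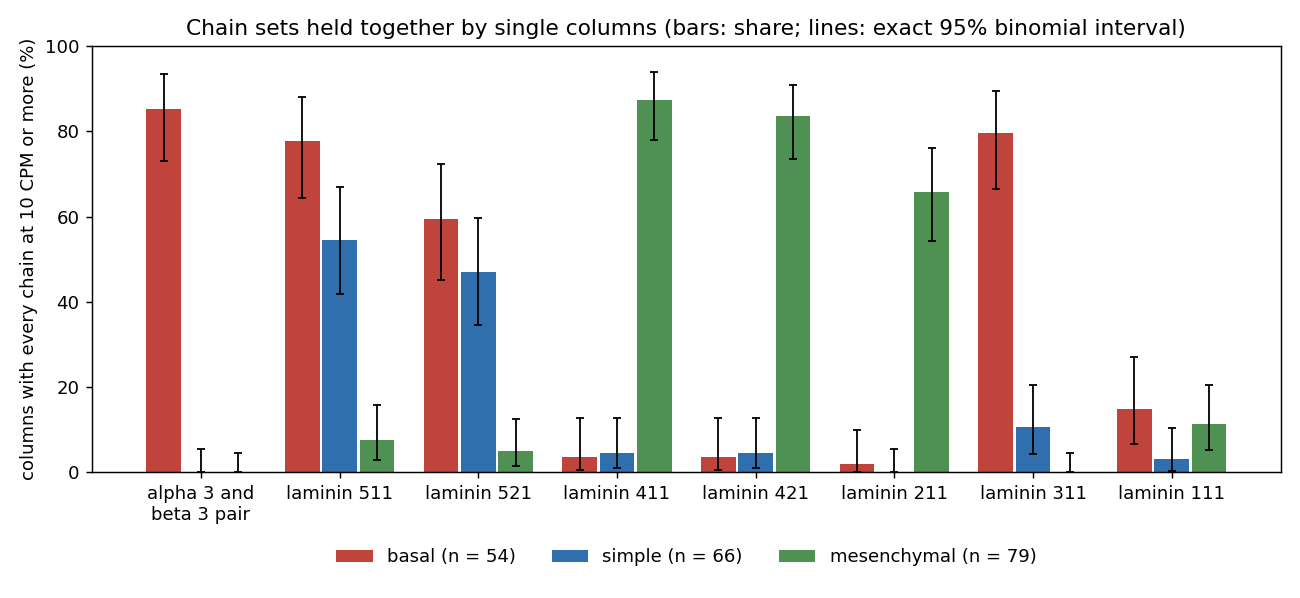
Share of columns (%, bars from 0) that hold every chain of a set at 10 CPM or more, for 54 basal, 66 simple and 79 mesenchymal columns, with exact 95% binomial intervals as lines. The alpha 3 and beta 3 pair is at 85.2% in basal columns and 0% elsewhere, Lm511 is at 77.8% and 54.5% in basal and simple columns, and Lm411 is at 87.3% in mesenchymal columns.

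The number of alpha chains per column differed between the states. Of 54 basal columns, 39 held 2 alpha chains and 11 held 3, and 49 held Lama3 with Lama5. Of 66 simple columns, 40 held 1 alpha chain, mostly Lama5 alone (37 columns), and 13 held none. Of 79 mesenchymal columns, 23 held 1, 44 held 2 and 12 held 3, with Lama4 and Lama2 together in 54. In basal columns 39 held both Lm511 and the alpha 3 and beta 3 pair, 7 the pair alone, 3 Lm511 alone and 5 neither. Where Lm511 was complete, Lama5 had the lowest CPM per kb of its 3 chains in 23 of 42 basal and 23 of 36 simple columns, and in the 69 mesenchymal columns with Lm411 the lowest chain was Lamc1 in 35, Lamb1 in 18 and Lama4 in 16, or in 52, 10 and 7 with the longest transcript as the length. In the alpha 3 and beta 3 pair the lower chain was Lama3 in 24 and Lamb3 in 22 of 46 basal columns.

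Within a state the chains of a trimer moved together to different degrees. Over 66 simple columns, Spearman's rho was 0.48 for Lama5 with Lamb1, 0.52 for Lama5 with Lamc1 and 0.52 for Lamb1 with Lamc1, while over 54 basal columns the same pairs gave 0.04, 0.31 and 0.14. Over 79 mesenchymal columns, rho was 0.40 for Lama4 with Lamb1 and 0.41 for Lama4 with Lamc1. Lama3 with Lamb3 gave 0.16 in basal and -0.08 in simple columns. These are descriptions of columns that share an unknown number of embryos and libraries of different depth. They may include cells labelled omit.

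Simple columns that held part of the Lm332 chains were examined for Trp63, since p63 is known to act on basal keratinocyte genes. Counts of Trp63 message do not show whether an allele was edited or whether working p63 was present. The 11 simple columns with Lama3 had 10.8 to 180.2 CPM of it, and 10 of them held Trp63 at 57.5 CPM or more, whereas the one with the lowest Lama3 held 1.04 CPM of Trp63. The 5 simple columns with Lamb3 had 164.3, 95.7, 89.6, 53.99 and 18.2 CPM of it, and 4 of them held Trp63 at 42.4 CPM or more. Most simple columns with Trp63 held neither chain at 10 CPM, as 39 held Trp63 without Lama3 and 45 held it without Lamb3. None of the 11 or 5 columns reached 10 CPM of Col17a1, the hemidesmosome collagen, the highest being 1.02 CPM. Spearman's rho with Trp63 over 66 simple columns was 0.33 for Lama3 and -0.18 for Lamb3, and over 54 basal columns 0.30 and 0.35.

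Lm511 was then counted in simple columns with and without Trp63. It was complete in 31 of 49 simple columns with Trp63 at 10 CPM or more and in 5 of 17 without it, Lama5 was held by 42 of 49 and 8 of 17, and 5 of 49 and 8 of 17 held no alpha chain. This split was made after the values were seen and carries no test. The 13 simple columns without any alpha chain had a median total of 9424209 counts, against 7209331 for the other 53, and the 30 simple columns without Lm511 had 7392412 against 7250396 for the 36 with it. Of the 13, 5 held Hba-a1 at 10 CPM or more, against 10 of 53, and the part of red cell RNA in this was not tested. Whether cells labelled omit were among the 13 could not be seen.

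The 6 mesenchymal columns with Lama5 fell into 2 kinds. In 5 of them Lama5 stood at 12.5, 13.4, 33.8, 151.0 and 172.9 CPM beside Myod1 at 148.7 to 1067 CPM and Des at 347.1 to 774.4 CPM, genes of skeletal muscle precursors. The other, at 235.1 CPM of Lama5, was the column that also met the simple rule, with Krt8 at 169.4 CPM and Krt18 at 191.8 CPM, and it held 0 of Lama4 and Lama2. In all, 6 mesenchymal columns held Myod1 at 10 CPM or more, and they had medians of 143.6 CPM of Lama4 and 96.5 CPM of Lama2, against 376.3 and 47.01 CPM in the 73 columns without Myod1. Their Col1a1 reached 100.6 to 414.1 CPM, against a median of 14090 CPM in the 73. Without these 6 columns, Lm511 was complete in 1.37% of mesenchymal columns in place of 7.59%, a comparison added after seeing the data.

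Of the epithelial columns with Lama4, the 2 basal ones had 84.2 and 43.6 CPM and the 3 simple ones 127.4, 62.2 and 10.1 CPM. None of these 5 reached 40 CPM of Col1a1 or 10 CPM of Col3a1, and all 5 held Epcam, at 170.9 to 2214 CPM. The basal column at 84.2 CPM was a labelled cell of WT01, in WT-KCP. Dcn stood at 2383, 51.3 and 685.9 CPM in the simple columns with 127.4, 62.2 and 10.1 CPM of Lama4, and at 212.3 and 20.1 CPM in the basal columns with 84.2 and 43.6 CPM. Vim, a filament gene of mesenchymal cells, was 46.8 CPM in the first of these 5, 284.0 CPM in the WT-KCP cell and 0 in the other 3. The part of mesenchymal RNA in these Lama4 values was not tested.

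The labelled cells of WT01 were compared to describe the chains of wild-type cells whose label is known. The 11 WT-KCB cells ranged from 0.509 to 228.2 CPM of Lama3 with a median of 162.4, from 11.1 to 267.0 CPM of Lamb3 with a median of 48.2, and from 5.34 to 140.5 CPM of Lama5 with a median of 50.7. The alpha 3 and beta 3 pair stood in 10 of 11 WT-KCB cells. The exception, WT-KCB cell 2, had 0.509 CPM of Lama3 beside 103.9 CPM of Lamb3, and it also carried 253.0 CPM of Shh, a signal of hair placodes, and 612.9 CPM of Krt17. Lm511 was complete in 8 of 11, and the other 3 lacked Lama5 (cell 8, 5.34 CPM) or Lamc1 (cells 2 and 3, 3.31 and 2.67 CPM). Lama4 did not exceed 0.259 CPM in any WT-KCB cell.

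In the 4 WT-KCP cells, Lama3 was 146.4, 160.6, 134.7 and 189.3 CPM, Lamb3 was 57.2, 168.2, 229.7 and 139.6 CPM and Lama5 was 182.3, 50.6, 37.4 and 20.2 CPM. All 4 held the alpha 3 and beta 3 pair and Lm511. The single WT-KCI cell stood apart, with Krt1, a keratin of suprabasal cells, at 13860 CPM. It had Lama3 at 7.76 CPM, Lama5 at 0.243, Lamb3 at 0, Lamb1 at 26.7, Lamc1 at 11.6 and Lamb2 at 124.7 CPM, so Lamb2 was its highest chain and it completed neither Lm511 nor Lm411 nor the pair.

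WT-KCP and WT-KCB differed by less than 2-fold in the main epidermal chains. Summed over cells, Lama3 was 155.5 against 157.9 CPM, Lama5 70.8 against 70.5 CPM, Lamb2 41.4 against 40.98 CPM, Lamb1 247.0 against 188.9 CPM, Lamb3 154.8 against 99.8 CPM and Lamc1 131.6 against 68.2 CPM. In all, 1 of 9 members was higher and 2 were lower by 2-fold, while over 15387 genes 17.5% were higher and 21.9% lower. The members called were at low levels and rest on 1 or 2 cells. Lama4 had 555 counts in WT-KCP against 4 counts in WT-KCB, with values of 0, 2.99, 0 and 84.2 CPM in WT-KCP, and without the last cell its level was 0.919 CPM and the call was lost. Lama1 was 0 in WT-KCP against 3.30 CPM in WT-KCB, from 2 WT-KCB cells, and Lama2 was 0 against 2.41 CPM, from 1 WT-KCB cell at 25.7 CPM, without which it was 0 in both. Without 1 cell each, Lama5 in WT-KCP fell to 36.7 CPM, Lama1 in WT-KCB fell to 1.19 CPM, and Lamc1 passed 2-fold with a log2 ratio of 1.27 without WT-KCB cell 7. The 4 and 11 cells of 1 embryo carry no error between embryos, so none of this is a test of the labels.

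**Figure D4:**
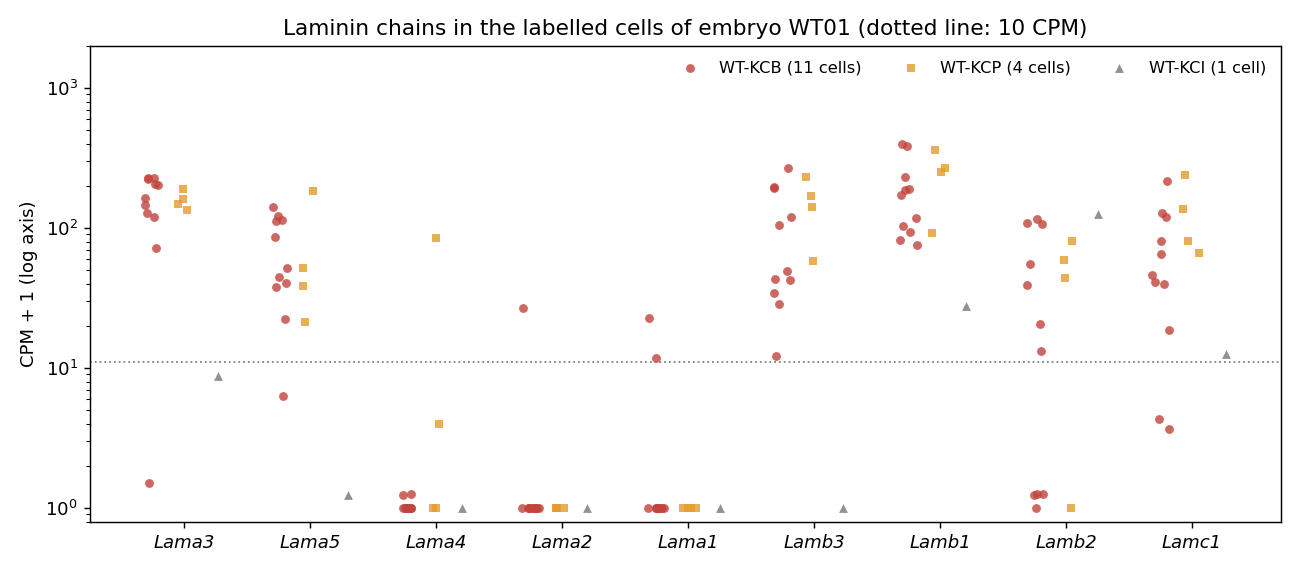
CPM + 1 on a log axis of the 9 laminin chains in the labelled cells of embryo WT01, 1 point per cell, for 11 WT-KCB (circles), 4 WT-KCP (squares) and 1 WT-KCI cell (triangle), with 10 CPM as a dotted line. Lama3 lies between 71.1 and 228.2 CPM in 14 of the 15 WT-KCB and WT-KCP cells, and the WT-KCI cell is below 10 CPM for Lama3, Lama5 and Lamb3.

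Most of the listed receptors of laminins were lower in simple than in basal columns. Of 10 listed receptors 9 were tested, 7 were lower by 2-fold or more and none was higher, against 18.6% higher and 13.2% lower over all genes. The 7 included Sdc1 (14.67 against 231.8 CPM), Itga1 (0.0776 against 7.42 CPM) and Itga2 (0.0106 against 18.97 CPM). Itga1 and Itga2 reached 10 CPM in only 10 and 18 of 54 basal columns. Itgb4 (48.5 against 231.3 CPM) and Itga6 (17.1 against 88.3 CPM), the hemidesmosome integrin that binds Lm332, were 4.69-fold and 4.94-fold lower, with Itgb4 at 28.3 CPM in simple columns and 7.94-fold lower without the column of highest Lama5, and Itga3 (106.1 against 240.6 CPM), which pairs with Itgb1 to bind Lm332 and Lm511, was 2.26-fold lower. Itgb1 (333.8 against 344.4 CPM) and Dag1, which encodes dystroglycan (305.7 against 260.1 CPM), differed by less than 2-fold. Bcam, a receptor for the alpha 5 chain, was 2.07-fold lower but still at 808.3 CPM, and 64 of 66 simple columns held it.

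Chain and receptor were then read in the same column. Itga6 and Itgb4 stood together in 40 of the 46 basal columns with the alpha 3 and beta 3 pair. They did so in 44 of all 54 basal columns and in 10 of 66 simple columns. Itga3 and Itgb1 stood together in 38 of 42 basal and in 27 of 36 simple columns with Lm511. Over all columns of these states they stood together in 48 of 54 basal and 35 of 66 simple columns. All 42 basal and all 36 simple columns with Lm511 held Bcam, but so did 54 of 54 basal and 64 of 66 simple columns as a whole. In the 69 mesenchymal columns with Lm411, Itga6 with Itgb1 stood in 23, Itga7 with Itgb1 in 13 and Dag1 in 65. Over all 79 mesenchymal columns these stood in 29, 14 and 75.

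In mesenchymal against basal columns 3 of 10 receptors were higher and 5 lower, against 19.6% and 18.8% over all genes. Higher were Itga1 (64.8 against 7.42 CPM), Itga7 (47.8 against 0.225 CPM, the latter from 1 of 54 columns), the laminin integrin of muscle, and Itgb1 (947.5 against 344.4 CPM). Lower were Itga2, Itga3, Itga6, Itgb4 and Bcam, with Itgb4 at 1.23 against 231.3 CPM and Bcam at 28.4 against 1677 CPM. Itga3 in mesenchymal columns fell from 5.26 to 0.920 CPM without 1 column, and Sdc1 reached 2.01-fold lower without 1.

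The basement membrane partners split between the states. Nid1 and Nid2, the nidogens that bridge laminin and collagen IV, stood at 387.5 and 538.6 CPM in mesenchymal columns, at 4.79 and 3.08 CPM in simple columns and at 1.72 CPM and 0 counts in basal columns. Col4a1 was 283.1 CPM in basal, 60.2 in simple and 772.6 in mesenchymal columns, and Col4a2 followed the same order with 124.4, 31.02 and 296.8 CPM. Hspg2 (perlecan) and Agrn (agrin) differed by less than 2-fold in each comparison of states, but Agrn reached 2.01-fold in mesenchymal against basal columns without 1 column. Of 9 partners, 2 were higher and 4 lower in simple against basal columns (18.6% and 13.2% of all genes), 5 higher and 1 lower in mesenchymal against basal columns (19.6% and 18.8%), and 6 higher and 0 lower in mesenchymal against simple columns (18.8% and 23.7%). Those higher in simple against basal columns were Nid1 and Nid2, and each call was lost without 1 simple column, with levels of 1.68 and 0.723 CPM. Col17a1 was 408-fold lower in simple (0.695 CPM) than in basal columns (689.7 CPM), and Bmp1, a protease that processes Lm332, was 214.6 CPM in mesenchymal columns against 21.5 in basal columns. In WT-KCP against WT-KCB 2 of 9 receptors tested, Sdc1 and Itga1, were lower and none of 8 partners passed 2-fold, against 17.5% higher and 21.9% lower over all genes. Leaving out 1 cell changed the call of Itga6, Itgb4, Nid1, Hspg2 or Agrn in that comparison.

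The genes whose log2(CPM + 1) was most like that of 3 chains were listed over 237 columns among 11964 genes at 10 CPM or more in at least 10% of columns. For Lamb3 they were Col17a1 (Pearson's r = 0.83), Krt14 (0.78), Jag2 (0.76), Pltp (0.73) and Serpinb10 (0.73). For Lama5 they were Bcam (0.77), Fras1 (0.70), Itga3 (0.70), Wnt6 (0.69) and Kremen2 (0.69). For Lama4 they were Pmp22 (0.93), Col6a2 (0.93), Col6a1 (0.92), Col1a1 (0.92) and Gm47302 (0.92). The columns mix the states, so these values follow the states as well as any likeness within them.

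Some counts could hold reads of other genes. The exons of Lama2 share 631 bases with the antisense gene Gm48084 and those of Lama3 share 197 bases with Gm29200, and the kit does not mark the strand of a read, so the reads of such a pair cannot be told apart. Fractional values made up 32.1% of the nonzero values of Lama2 and 21.5% of those of Lama3, against 0% for Lamb1.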

How the data were processed

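Reads of 150 bp in pairs from SMART-Seq HT and Nextera XT libraries, without molecular identifiers, were trimmed with Trimmomatic, aligned to mm10 with HISAT2 and counted with featureCounts on Ensembl release 97 by the authors. The strand and multi-mapping settings of the counting are not given in the sources used here. The deposited values are raw estimated counts, not normalized, and 23.2% of the nonzero values carry a fraction. They were rounded to whole numbers.

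CPM is the rounded count divided by the column total. Depth was 2701500 to 19197138 counts per column. The 237 columns are named by run, and 16 were tied to a cell, all of embryo WT01, through the part of a supplementary table that was at hand, so that more columns may be paired in the whole table. The rest were used as part of 1 pooled matrix, and the labelled groups without a tied column were not analysed here. Cells are not replicates, so no test was run, including those the study's methods use. Levels have exact 95% Poisson intervals and shares exact 95% binomial intervals, and 3 counts were the floor for a count of 0. Ratios used a pseudocount of 1 CPM, genes at 1 CPM or more in either group and a 2-fold call. The share of all genes past it is given beside the members. The calculation was tested on simulated data.

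The members, lists and tests were chosen with earlier results of these data known. The genes named are the members, the other laminin chains, listed receptors, partners and cell type markers, and the 5 genes most like Lamb3, Lama5 and Lama4. Vim, Shh and Trp63 beside the chains, and single columns, were chosen after the values were seen. The remaining chain of Lm332 is not reported here. Gene positions and exon lengths are from GENCODE M21 on GRCm38, the assembly named mm10, and upstream sequences from RefSeq. Alternatives were fractional counts, totals without the rRNA-rich genes Gm42418, Gm26917 and AY036118, TMM factors from edgeR 4.0.16 (R 4.3.3), the mean of the columns' CPM, a pseudocount of 0.1 CPM, no filter, a fold of 4, other cutoffs, thinning to 1000000 counts and leaving out each column. Leaving out columns for receptors and partners, and the columns with Myod1, was added after seeing the data. The scripts ran on Python 3.11.15 (pandas 2.3.3, numpy 2.4.6, matplotlib 3.10.9 and scipy 1.17.1).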

Additional observations from a re-analysis of the deposited data

Results flagged for a closer look

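The Lama4 level of 1 WT-KCP cell lay far from those of the other WT-KCP cells of WT01. The 4 cells had 0, 2.99, 0 and 84.2 CPM, and the gap below the highest cell was 0.964 of the whole range. The cell also had the highest Vim level of the 16 labelled cells, 284.0 CPM, and 31.7 CPM of Shh, and it held Lama3 at 189.3 CPM and Lamb3 at 139.6 CPM. The rule nominally flags about 1 in 20 groups by chance, a rate that may not hold for values with zeros such as these. In WT-KCP 7 chains were examined.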

How the results depend on the processing

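No ratio of a member called at 2-fold changed sign under any alternative run, and among receptors and partners that of Nid1 in simple against basal columns did, to a log2 ratio of -0.018 without 1 column. Fractional counts, totals without the rRNA-rich genes, TMM factors, the mean of the columns' CPM, no filter on low values, other cutoffs for the states, columns with at least 1000000 counts (all of them) and leaving out the column that met both rules kept every count of members called within 1.5 times. With TMM factors Lamc1 joined the members higher in mesenchymal against basal columns. With a pseudocount of 0.1 CPM, 1 member in place of 0 was higher in simple against basal columns. With a fold of 4, 2 members in place of 4 were higher in mesenchymal against basal columns, 2 in place of 5 in mesenchymal against simple columns, and 1 in place of 2 was lower in WT-KCP against WT-KCB. Leaving out each column in turn, the members higher in simple against basal columns ranged from 0 to 1, and in WT-KCP against WT-KCB those higher ranged from 1 to 2 and those lower from 1 to 2. Without 1 simple column, Lama1 joined the members lower in simple against basal columns (log2 ratio -1.29). It then also joined those higher in mesenchymal against simple columns (1.27). The member that turned higher in simple against basal columns was Lama2, with a log2 ratio of 1.06 at the lower pseudocount. The Lama4 and Lama2 calls of WT-KCP against WT-KCB were each lost without 1 cell, with log2 ratios of 0.88 and 0. At 50 CPM for every chain, the alpha 3 and beta 3 pair stood in 64.8% of basal columns, and Lm511 in 46.3% of basal and 36.4% of simple columns. At 1 CPM, Lm411 stood in 94.9% of mesenchymal columns. With the Myod1 columns left out, Lm511 stood in 1.37% of mesenchymal columns. Columns thinned to 1000000 counts gave 85.5% of basal, 0% of simple and 0% of mesenchymal columns for the pair. Some called ratios of members moved by over 1.5 times and kept their direction. Lama5 was 20.4-fold and 17.3-fold lower in mesenchymal than in basal and simple columns without the column that met both rules, and 26.4-fold and 22.8-fold lower without the Myod1 columns. Without 1 column each, Lama4 was up to 223-fold and 199-fold higher in mesenchymal than in basal and simple columns, and Lama2 71.0-fold higher than in simple columns. With all state cutoffs halved Lama4 was 224-fold higher in mesenchymal than in basal columns, and with them doubled Lama3 was 25.9-fold lower in mesenchymal than in simple columns. With a pseudocount of 0.1 CPM, 8 ratios with a low level on one side grew, such as that of Lamb3 in mesenchymal against basal columns to 95.4-fold lower. No paired analysis was possible because the tied columns come from 1 embryo and the other columns carry no replicate number. Depth limits the low values, since 1 count in the shallowest column is well under 1 CPM, and with most columns not tied to an embryo here the intervals hold no error between embryos.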
